A study of Mus musculus with 8 samples.

Results

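The comparison set gastrocnemius muscle of C57BL/6 mice at 12 months of age against the same muscle at 3 months, over all expressed genes. Its members are the 2 libraries labelled 12 months and the 2 labelled 3 months, 4 of the 8 libraries of a series that also holds 24 and 30 months. No treatment or engineered allele is named for any group, and the labels give the strain as C57BL/6 with no substrain. RNA was extracted with Trizol from frozen muscle and sequenced as NEBNext Ultra paired-end libraries, and the values used are the deposited gene counts. Whether the 2 libraries of each age stem from different animals is not stated, and the p-values therefore reflect spread among libraries, part or all of which may be technical. Levels are CPM (counts scaled to the library size) after TMM, a normalisation that corrects for a few very abundant genes, in the order replicate 1 and replicate 2.

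The gastrocnemius is a calf muscle made mostly of fast fibres, with a minority of slow, oxidative fibres. Between young and mature adulthood a mouse stops growing, its collagen synthesis slows and its body keeps responding to day and night through a clock that also runs in muscle fibres. The clock is a loop in which Arntl and Clock drive genes such as Dbp, Per2 and Ciart through E-box sequences, and the products of some of those genes shut the drive off again. Transcripts of clock genes therefore depend on the hour at which a muscle is taken.

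All 4 libraries carried the markers of skeletal muscle fibre, whose 8 genes, Acta1, Ckm and Ttn among them, summed to 253000 and 326000 CPM in the 3 month libraries and to 259000 and 298000 CPM in those of 12 months. The 3 month libraries held 42404254 and 56705929 counts and the 12 month libraries 49903357 and 53184366. For counting error only, no count in a library allows up to 0.0648 and 0.0556 CPM in the younger pair or 0.0584 and 0.0585 CPM in the older. Log2 CPM of the libraries of an age correlated across genes at 0.991 for 3 months and 0.987 for 12 months, and genes are not independent replicates. Summed markers of liver stayed at or below 1.36 CPM and those of skin at or below 1.89 CPM in these libraries. Brain markers summed to 198 and 265 CPM (3 months) and 201 and 276 CPM (12 months), of which Camk2a alone made up 156 and 242 CPM and then 176 and 242 CPM, and heart markers to 9.77 and 10.4 CPM and then 14.7 and 11.3 CPM.

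Kidney transcripts and clock phase both differed between the libraries compared. The summed level of 9 kidney markers, among them Umod, Lrp2, Slc34a1 and Kap, was 51.0 and 16.6 CPM in the 3 month libraries and 5.53 and 0.722 CPM in those of 12 months. Lrp2, the megalin receptor of the kidney tubule, was at 14.5 and 4.47 CPM in the 3 month libraries and at 1.23 and 0 CPM in those of 12 months. Kap, a kidney androgen-regulated gene, was at 15.1 and 3.78 CPM in the 3 month libraries and at 1.19 and 0 CPM in those of 12 months. Replicate 2 of 12 months was the library nearest to 0 in both. Of the 9 markers, 8 lay lower at 12 months without overlap, where 19.2% of all genes tested did so, and 0 were called. Of 25 further kidney genes 18 could be tested, 17 of them had a negative log2 fold change, and 0 were called. A score of 8 clock genes (mean log2 level of Dbp, Tef, Ciart, Nr1d1 and Per3 minus that of Arntl, Npas2 and Clock) was -0.758 and -0.574 at 3 months, -0.016 in replicate 1 of 12 months and 3.194 in replicate 2. Replicate 1 of 12 months was thus near the young libraries in the clock and replicate 2 far from them. At 24 and 30 months, too, 1 of the 2 libraries had kidney markers below 1 CPM, with clock scores of 2.898 and 2.718, and the other had them above, with scores of 0.858 and 0.273. Both 3 month libraries held kidney markers above 1 CPM. A fit with the library set (kidney markers above or below 1 CPM) as a term therefore estimates the set from the 3 later ages alone. The median log2 fold change of the 9 markers was -3.87 without that term and still -2.88 with it. Genes called with the set as a term are therefore not set apart from kidney RNA. With kidney level, read from the same 9 markers, and clock score as terms the median was 0.43.

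Few genes passed the test between 3 and 12 months. Of 19571 genes tested, 8 changed at a Benjamini-Hochberg adjusted p below 0.05 in edgeR's quasi-likelihood test, which is 0.0409%, with 5 higher (0.0255%) and 3 lower (0.0153%) at 12 months. An unadjusted p under 0.05 was reached by 1077 genes where 979 would be expected with no difference. The genes that rose were mt-Nd3, mt-Tg, Gm15446, Gm10800 and Hist1h4m, and those that fell were Gm28438, Gm10222 and Wdfy1. Both 12 month libraries stood above both of 3 months for 3779 genes (19.3%) and below them for 3752 (19.2%). The scaling centres the fold changes, whose median over all genes was 0. The count of genes that passed was 29 (0.148%) with the library set as a term, 19 of them higher (0.0971%) and 10 lower (0.0511%), 19 with the clock score as a term and 7 with both kidney level and clock score as terms. With replicate 1 of 3 months left out 5 genes passed, and with its replicate 2 left out 4 did. Omitting replicate 2 of 12 months gave 5, and omitting 1 or the other 30 month library gave 14 each time. Mitochondrial genes, nuclear copies of them and repeats were among the 8, namely mt-Nd3, mt-Tg, Gm28438, Gm10222 and Gm10800. When such genes were left out of the test, 1 gene, Gm15446, passed. Hist1h4m and Wdfy1 stayed in that test and did not pass, and an adjusted p depends also on the other genes tested.

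Of the 8 genes, 4 lay in a short stretch of the mitochondrial genome or in nuclear copies of it. mt-Nd3, which encodes a subunit of respiratory complex I, was at 0.605 and 0.408 CPM in the 3 month libraries and at 13.7 and 11.5 CPM in those of 12 months. The later libraries stayed near the 12 month level (13.9 and 15.2 CPM for 24 months, 16.4 and 13.8 CPM for 30). mt-Nd3 rose by 4.64 ± 0.24 (SE) on the log2 scale, and its adjusted p was 7.41e-05. Gm28438, a nuclear pseudogene copy of mt-Nd3 on chromosome 1 (GRCm38 positions 24612775 to 24613119, minus strand), ran the other way, at 22.4 and 19.6 CPM in the 3 month libraries and 0.351 and 0.527 CPM in those of 12 months. It fell by 5.57 ± 0.27 (SE) on the log2 scale, with an adjusted p of 7.41e-05. Neither gene's age groups overlapped. Together mt-Nd3 and Gm28438 summed to 23 and 20 CPM in the 3 month libraries and 14.1 and 12.0 CPM in those of 12 months, a far smaller difference than either gene showed alone.

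The sequences of both genes show how little separates them. In the reference, 344 of the 345 bases compared are identical, and the single difference is T3C: counted from 1 at the first base of the gene, mt-Nd3 has the first base named and the copy has the last. The base lies at position 9461 of the mitochondrial genome, in a gene that spans 9459 to 9806 on the plus strand. The first 23 bases of each follow, from the GRCm38 reference, with the differing base in capitals.
mt-Nd3: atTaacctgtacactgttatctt
Gm28438: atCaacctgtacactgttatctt

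The closest neighbours of mt-Nd3, from mt-Tg to mt-Nd4l, had the same pattern. mt-Tg, the glycine transfer RNA that lies directly before mt-Nd3, had no count in either 3 month library and stood at 1.81 and 1.44 CPM at 12 months. Its lowest 12 month level was at least 22.2-fold higher than the highest level that a count of 0 allows in a 3 month library, and its adjusted p was 0.00195. mt-Nd4l, another complex I subunit on the far side of mt-Nd3, was at 0.0648 and 0.167 CPM in the 3 month libraries and 1.56 and 1.27 CPM in those of 12 months, with an adjusted p of 0.117 (0.0253 with the library set as a term). Gm10222, every 25-base word of which also occurs in mt-Nd4l, fell from 94 and 111 counts at 3 months to 2 and 4 counts at 12 months (log2 fold change -5.07 ± 0.58 SE, adjusted p = 0.0283). The ratio of those counts, scaled for depth, was 35.0, with an exact 95% counting interval of 15.8 to 96.4. mt-Nd4l and Gm10222 summed to 2.09 and 2.23 CPM in the 3 month libraries and 1.60 and 1.35 CPM in those of 12 months. mt-Co1, the catalytic subunit of cytochrome oxidase, had a log2 fold change of -0.03 ± 0.31 (SE) and mt-Cytb, of complex III, one of -0.02 ± 0.36 (SE). Of 12 tested genes on the mitochondrial list 3 lay higher without overlap, where 19.3% of all genes did, and the median log2 fold change was -0.03. The call on Gm10222 was lost without any one of the 4 libraries compared. The counting of reads that match several places is not described in the labels, so single levels of these genes are uncertain.

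A pair of histone genes behaved alike. Hist1h4m, which encodes histone H4, was at 0.130 and 0.0927 CPM in the 3 month libraries and at 5.65 and 3.59 CPM in those of 12 months, and it rose by 5.36 ± 0.63 (SE) on the log2 scale (adjusted p = 0.0404). Hist1h4n, another H4 gene nearby on chromosome 13, was at 10.5 and 11.8 CPM in the 3 month libraries and 4.23 and 2.93 CPM in those of 12 months (log2 fold change -1.64 ± 0.35 SE, adjusted p = 0.436). Of the 25-base words of Hist1h4m, 93.4% also occur in Hist1h4n. The pair summed to 10.6 and 11.9 CPM in the 3 month libraries and 9.88 and 6.52 CPM in those of 12 months. Leaving out any one of the 4 libraries compared took the call from Hist1h4m, while the log2 fold change of Hist1h4m stayed between 5 and 5.64.

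Gm15446, a predicted zinc finger gene on chromosome 5, was at 0.346 and 0.445 CPM in the 3 month libraries and 5.92 and 4.84 CPM in those of 12 months. It rose by 3.75 ± 0.25 (SE) on the log2 scale, with an adjusted p of 0.000532. The 4 later libraries held it at 5.78 to 7.15 CPM, so the step lay between 3 and 12 months and no further rise followed. Its 25-base words occur to 42.2% in Zfp932, a neighbouring zinc finger gene. Gm10800, a predicted gene that resembles satellite repeat, was at 0.497 and 0.334 CPM in the 3 month libraries and 2.92 and 4.06 CPM in those of 12 months, and it rose by 3.08 ± 0.26 (SE) on the log2 scale (adjusted p = 0.00265). Unlike Gm15446 it went on to 16.2 and 16.3 CPM at 30 months. Without replicate 2 of 3 months the adjusted p on the log2 fold change of Gm10800 was 0.0692.

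Wdfy1, which encodes an endosomal adaptor protein, was at 18.4 and 19.1 CPM in the 3 month libraries and 8.47 and 7.72 CPM in those of 12 months. It fell by 1.21 ± 0.15 (SE) on the log2 scale (adjusted p = 0.0404), and every later library lay between 7.67 and 8.86 CPM. The step was thus complete by 12 months. The call was lost without any one of the 4 libraries compared, and without either library of 24 months the adjusted p on the log2 fold change of Wdfy1 was 0.0726 and 0.0638. Wdfy1 is among the genes known to differ between substrains of C57BL/6, as is Nnt. Nnt encodes a mitochondrial enzyme that couples proton flow to making NADPH, and the C57BL/6J substrain carries a deletion in it. Its level was 155 and 126 CPM in the 3 month libraries and 46.5 and 40.2 CPM in those of 12 months (log2 fold change -1.70 ± 0.26 SE, adjusted p = 0.117, and 0.0312 with the set as a term). Nnt passed in 6 of 22 alternatives. All 4 later libraries held Nnt at 48.5 to 89.3 CPM, below both 3 month libraries. Ide, a protease that degrades insulin, was at 113 and 113 CPM in the 3 month libraries and 227 and 212 CPM in those of 12 months (log2 fold change 0.95 ± 0.30 SE, adjusted p = 0.786). Of 10 tested genes on a list of C57BL/6 substrain genes, 1 was called higher and 1 lower, and the median log2 fold change was 0.84. Without overlap 5 lay higher and 3 lower, where 19.3% and 19.2% of all genes did so. Age and a difference of substrain between the 3 month mice and the older mice cannot be told apart, since the labels name no substrain. The same limit holds for the other steps between 3 and 12 months, those of mt-Nd3 and Gm15446 among them.

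**Figure D1:**
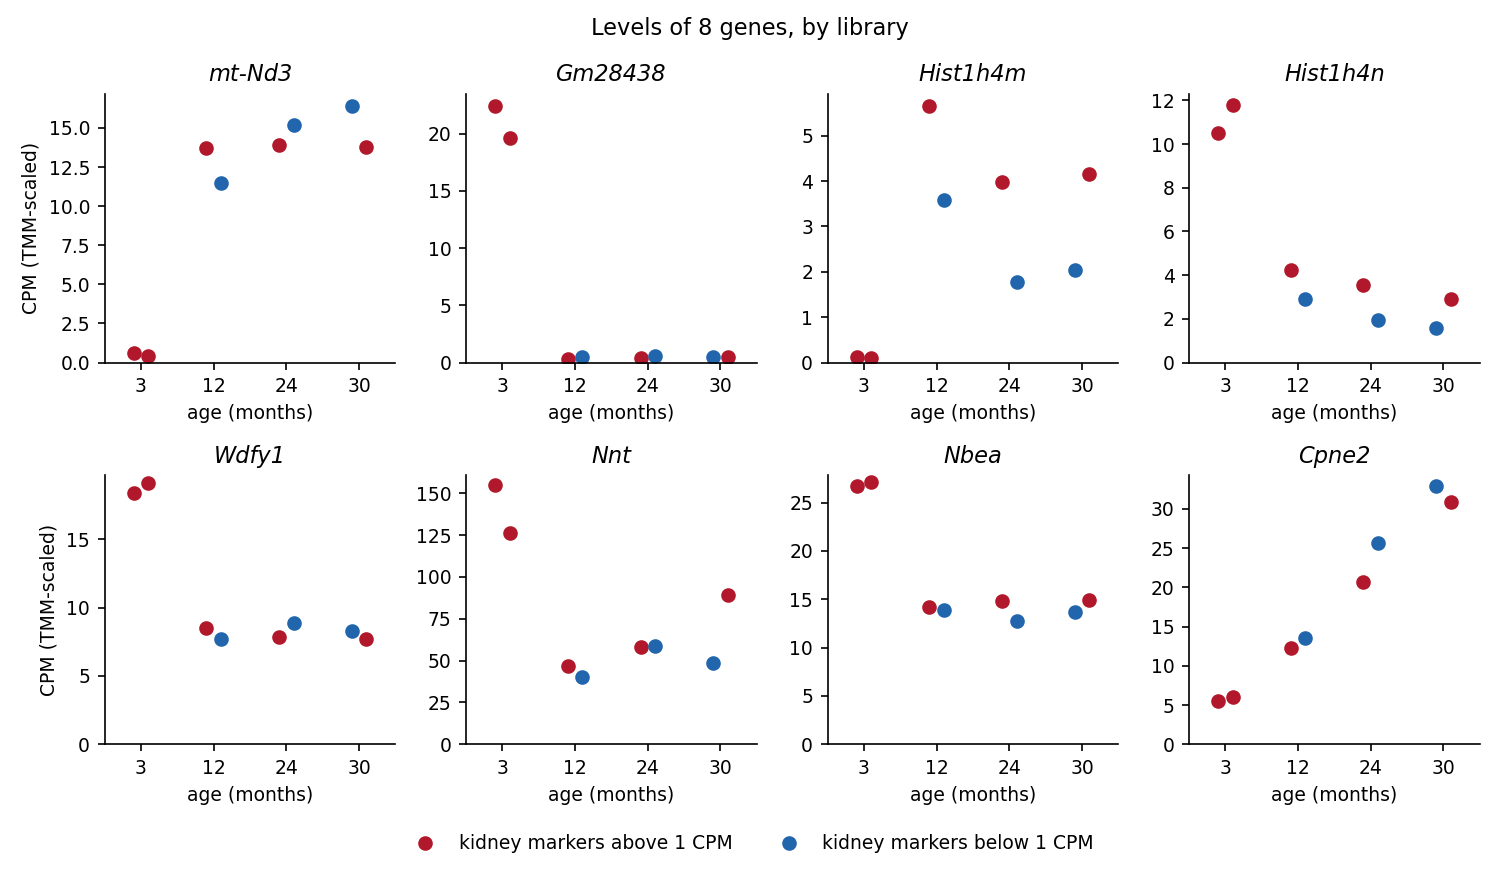
Each panel plots the level of 1 gene in CPM (TMM-scaled, linear axis from 0) in every library against age in months, replicate 1 left and replicate 2 right, with red points for libraries with kidney markers above 1 CPM and blue for those below. mt-Nd3 and Gm28438 swap levels between 3 and 12 months, Hist1h4m and Hist1h4n cross, Wdfy1, Nnt and Nbea sit lower at every later age than at 3 months, and Cpne2 climbs from 5.55 and 6.08 CPM to 32.9 and 30.9 CPM at 30 months.

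Beyond those 8, genes were taken by the lowest p among well measured, named genes. Only genes whose ages did not overlap were eligible, so the lack of overlap is no result. The values of these genes did not pass the test. Cpne2, a copine that binds membranes in response to calcium, was at 5.55 and 6.08 CPM in the 3 month libraries and 12.3 and 13.6 CPM in those of 12 months, a fold of 2.23 (log2 fold change 1.16 ± 0.16 SE, adjusted p = 0.0807). Later libraries went on to 20.7 and 25.6 CPM (24 months) and then 32.9 and 30.9 CPM (30 months). Tmem132b was at 6.03 and 5.25 CPM in the 3 month libraries and 17.8 and 16.1 CPM in those of 12 months (adjusted p = 0.0934) and did not climb further, with 12.6 to 20.4 CPM in the later libraries. These genes were called with the library set as a term, with adjusted p-values of 0.0142 for Cpne2 and 0.0208 for Tmem132b.

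Depp1, a gene induced by FoxO factors in fasting, was at 13.6 and 10.6 CPM in the 3 month libraries and 4.09 and 4.41 CPM in those of 12 months (log2 fold change -1.51 ± 0.22 SE, adjusted p = 0.0962). Nbea, which encodes the trafficking protein neurobeachin, was at 26.7 and 27.1 CPM in the 3 month libraries and 14.2 and 13.9 CPM in those of 12 months (log2 fold change -0.94 ± 0.14 SE, adjusted p = 0.0962). Replicates of an age agreed closely for Nbea and less so for Depp1. With the library set as a term both were called, at adjusted p-values of 0.0294 for Depp1 and 0.0303 for Nbea. Over 22 alternatives Cpne2 passed the test in 3, Tmem132b in 6, Depp1 in 5 and Nbea in 3, with the same direction in each. Dynlt1b, a dynein light chain, was at 11.2 and 10.9 CPM in the 3 month libraries and 2.88 and 3.43 CPM in those of 12 months (adjusted p = 0.306), and 85.9% of its 25-base words occur in Dynlt1c. Actc1, the cardiac actin that is also made in developing skeletal muscle, was at 113 and 127 CPM in the 3 month libraries and 43.5 and 22.8 CPM in those of 12 months (adjusted p = 0.299). Its later levels returned towards the young ones, at 48.4 to 100 CPM. Aqp4, the water channel of the fast fibre membrane, was at 57.6 and 60.2 CPM in the 3 month libraries and 30.2 and 26.6 CPM in those of 12 months (adjusted p = 0.378).

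The remaining genes taken by the same rule did not pass the test either. On the higher side Map3k7cl, Tmem37, Fgfrl1 (a fibroblast growth factor receptor without a kinase domain), Insyn1, Fez1 and Dkk3 (a secreted Dickkopf protein) had log2 fold changes of 0.78 to 1.20 and adjusted p-values of 0.234 to 0.389. Map3k7cl was at 4.62 and 4.52 CPM in the young libraries, 10.2 and 8.74 CPM in the 12 month libraries and 4.44 to 5.96 CPM later, so its 12 month libraries stood above all others. Dkk3 was at 8.56 and 11.4 CPM in the young libraries, 24.3 and 21.7 CPM in the 12 month libraries and 9.89 to 17.5 CPM later. On the lower side Dnm3 (a dynamin), Gbp4 (an interferon-induced GTPase) and Nova1 (a splicing regulator) had log2 fold changes of -1.01, -1.09 and -0.94, with adjusted p-values of 0.306, 0.309 and 0.471. Gbp4 was at 8.12 and 8.92 CPM in the young libraries, 3.97 and 4.06 CPM in the 12 month libraries and 4.85 to 12.5 CPM later.

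**Figure D2:**
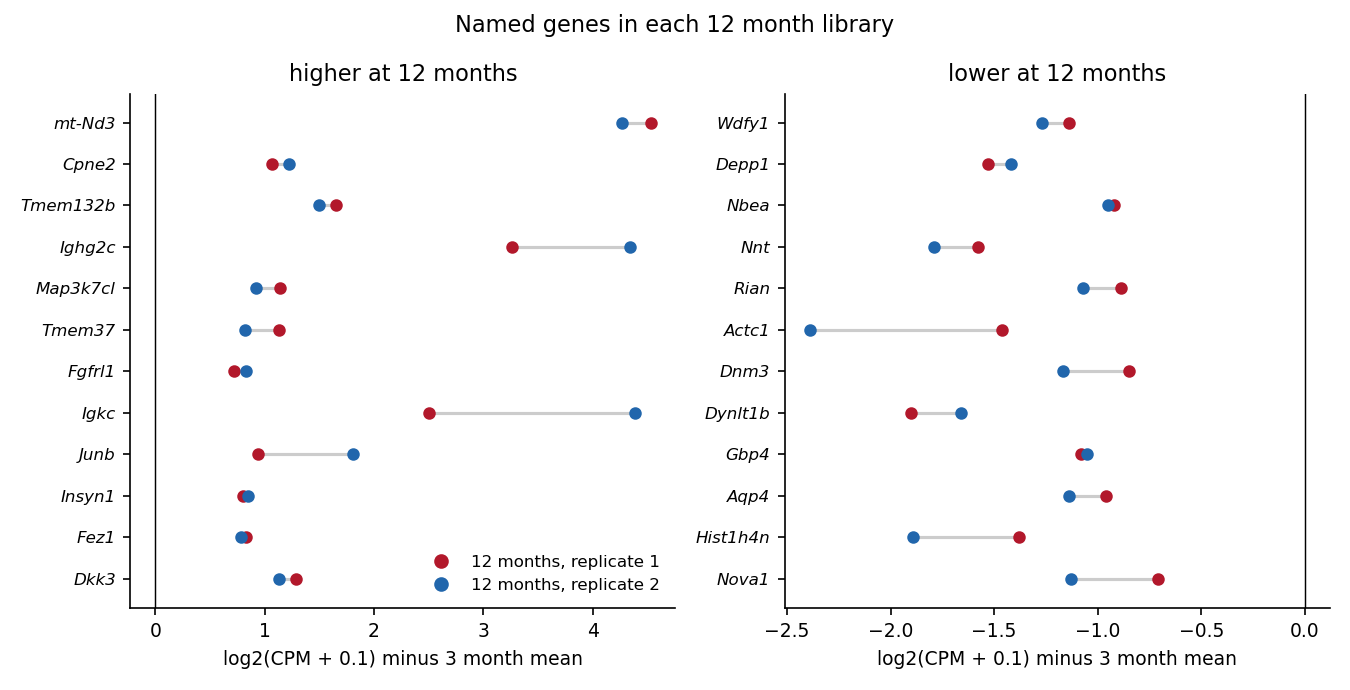
Each row is 1 gene, and the points give log2(CPM + 0.1) in replicate 1 (red) and replicate 2 (blue) of 12 months minus the mean of the 3 month libraries, with higher genes on the left and lower genes on the right. Only genes whose ages did not overlap were taken, so in all 24 rows both points fall on the same side of 0 by that choice. mt-Nd3 lies at 4.53 and 4.27, and Igkc has the widest gap between replicates, at 2.5 and 4.39.

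Asking which genes differed 2-fold from both 3 month libraries in each 12 month library set the replicates side by side. Among 10106 genes with an average log2 CPM of at least 2, 11 were 2-fold higher in both 12 month libraries (0.109%) and 9 were 2-fold lower in both (0.0891%). None of these 20 genes was on the clock lists or the kidney lists. The clock lists hold only 13 and 6 tested genes, so none would be likely among any 20 of the 10106 genes. The limit on average level keeps out genes as low as most kidney markers. These absences therefore do not set the 20 genes apart from clock phase or kidney RNA. Beside genes already described, Myh7, Cd209f and Otud1 were among the higher genes and Tmem181b-ps among the lower, with Otud1 and Tmem181b-ps named here after their values were seen. Of the 11 higher genes 8 were also 2-fold higher in all 4 later libraries, as were 4 of the 9 lower ones in their direction. A step past 2-fold in 1 library alone was more frequent, with 18 higher and 6 lower genes in replicate 1 and 51 higher and 60 lower genes in replicate 2. Of the 51 genes higher in replicate 2 alone, 7 were clock genes, from lists that hold 13 and 6 tested genes. Of the same 51, 16 were 2-fold higher in both later libraries with low kidney markers. In both later libraries with high kidney markers 2 were so. With a limit of 1.5-fold in place of 2-fold, 45 genes were higher and 24 lower in both libraries.

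Clock genes differed widely between the 12 month replicates. Dbp, a transcription factor that rises in the evening, was at 8.32 and 10.9 CPM at 3 months, 17.6 CPM in replicate 1 of 12 months and 65.3 CPM in replicate 2. Per2, a repressor of the clock loop, was at 4.17 and 3.56 CPM in the 3 month libraries and at 7.87 and 34.1 CPM in those of 12 months. Ciart, another repressor of the loop, was at 1.12 and 1.06 CPM in the 3 month libraries and at 1.48 and 7.51 CPM in those of 12 months. In each, replicate 2 of 12 months was the highest of the 4 libraries, and replicate 1 lay between it and the young libraries, nearest to them for Ciart. Arntl, which drives the loop, mirrored them at 44.1 and 49.5 CPM in the 3 month libraries and 35.1 and 9.36 CPM in those of 12 months. Npas2, a partner of Arntl, was at 4.39 and 5.49 CPM in the 3 month libraries and at 4.50 and 0.195 CPM in those of 12 months. Nr1d1, a repressor of Arntl, did not follow Dbp, with 33.3 and 70.1 CPM in the 3 month libraries and 41.3 and 24.0 CPM in those of 12 months.

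Of 13 tested genes of the evening arm 0 were called, and 10 lay higher without overlap, where 19.3% of all genes did. The median log2 fold change of the arm was 0.93 beside 0 for all genes. That median was 0.27 in replicate 1 of 12 months against the 3 month mean and 1.42 in replicate 2. With the set as a term it was 0.39, with the clock score -0.08, and the score was built from genes of the same arms. With the set as a term Per2 was called, at a log2 fold change of 1.11 ± 0.16 (SE) and an adjusted p of 0.0208, and its change in the fit without the term was 2.44 ± 0.97 (SE) with an adjusted p of 0.898. Of 21 alternatives Per2 passed in 1, and with the kidney level as a term its log2 fold change was -0.57. Of the 6 genes of the morning arm 0 were called. Without overlap 3 lay lower, Arntl, Clock and Nfil3, where 19.2% of all genes did. The morning arm had a median of -0.56, and of -0.15 with the clock score as a term. Nfil3, a repressor that opposes Dbp, was at 36.6 and 37.0 CPM in the 3 month libraries and 23.1 and 28.8 CPM in those of 12 months, and it was at 10.7 to 19.4 CPM in all later libraries whatever their clock score. Age and the hour of collection cannot be told apart for these genes at 12 months, since the replicates differ in clock score and the labels give no hour.

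**Figure D3:**
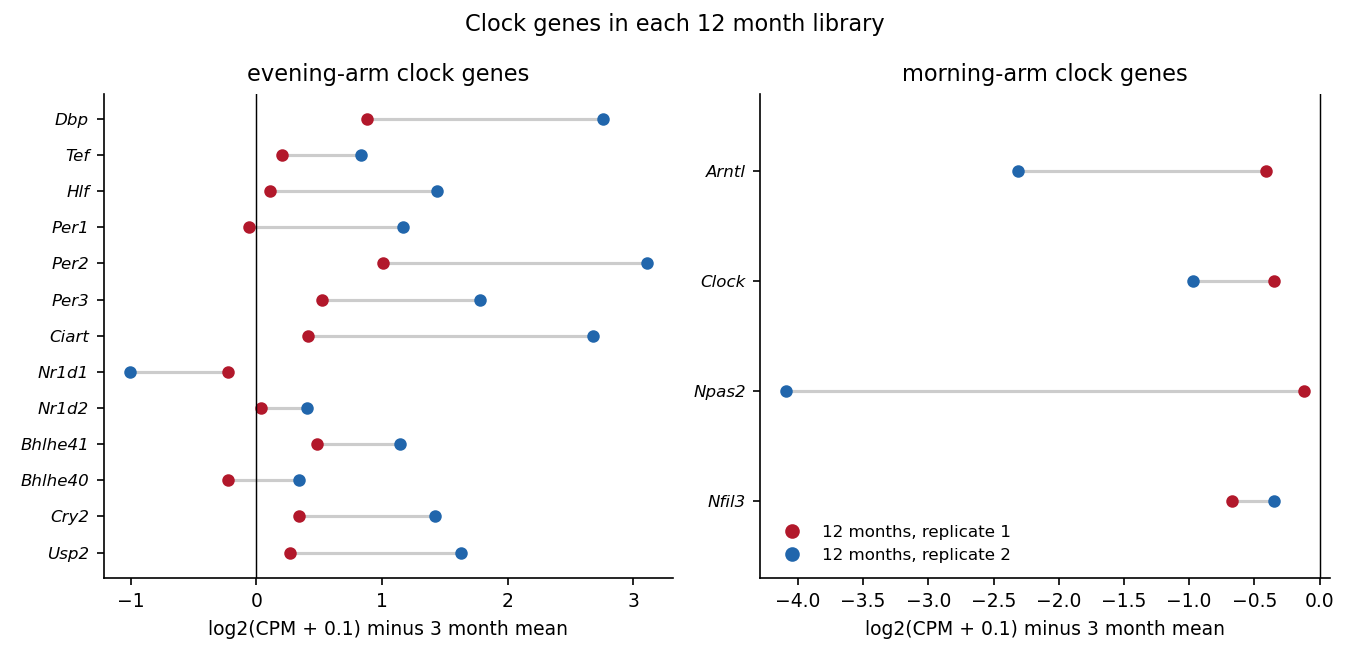
Rows are clock genes, the evening arm on the left and 4 genes of the morning arm with the lowest p on the right, and points give log2(CPM + 0.1) in replicate 1 (red) and replicate 2 (blue) of 12 months minus the 3 month mean. Dbp, Per2, Per3 and Ciart reach 2.76, 3.11, 1.78 and 2.68 in replicate 2 and 0.88, 1.01, 0.52 and 0.41 in replicate 1, and Npas2 reaches -4.09 in replicate 2.

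The E-box through which Arntl and Clock act is the 6 letters CACGTG, which read the same on both strands. Promoter windows of 300 bases from RefSeq (build GRCm38.p6, 250 bases before and 50 after the start) held these letters in 2187 of 27025 genes (8.09%). Among evening-arm genes 11 had a window and 4 of them held the letters (36.4%), and among morning-arm genes 1 of 5 did (20%). The windows of Dbp and Per3 held none, which says only that the letters are not in those windows. The window of Ciart held 3 and the first window of Per1 held 1, while the second window of Per1 held none. The window of Bhlhe41 and both windows of Tef held 1 each. Ciart is printed, with the letters in capitals, because it differed so widely between the 12 month replicates. The first window of Per1 was picked after its values were seen. Whether the letters bear on these levels was not tested. The window of Ciart lies at chr3:95882179-95882478 on the minus strand and the first of Per1 at chr11:69098699-69098998 on the plus strand.
Ciart: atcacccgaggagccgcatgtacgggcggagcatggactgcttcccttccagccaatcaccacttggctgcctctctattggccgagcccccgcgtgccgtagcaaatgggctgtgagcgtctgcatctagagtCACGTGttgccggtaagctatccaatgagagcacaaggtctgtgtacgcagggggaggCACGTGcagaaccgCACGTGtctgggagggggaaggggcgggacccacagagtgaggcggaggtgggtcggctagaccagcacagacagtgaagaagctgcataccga
Per1: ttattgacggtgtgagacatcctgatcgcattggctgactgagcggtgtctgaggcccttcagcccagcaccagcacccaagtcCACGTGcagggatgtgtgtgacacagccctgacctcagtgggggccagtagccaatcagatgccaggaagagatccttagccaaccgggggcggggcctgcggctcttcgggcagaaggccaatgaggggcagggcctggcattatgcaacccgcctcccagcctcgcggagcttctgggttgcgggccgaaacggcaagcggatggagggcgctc

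Of 12 tested slow fibre genes 7 lay higher at 12 months without overlap, where 19.3% of all genes did. Myh7, the slow myosin heavy chain, was at 124 and 77.0 CPM in the 3 month libraries and 329 and 263 CPM in those of 12 months, a fold of 2.95 (log2 fold change 1.56 ± 0.34 SE, adjusted p = 0.436). Tnnt1, slow troponin T, was at 50.8 and 23.2 CPM in the 3 month libraries and 98.3 and 76.8 CPM in those of 12 months. Tnni1, slow troponin I, was at 28.7 and 9.68 CPM in the 3 month libraries and 56.7 and 36.2 CPM in those of 12 months. In each of them the 12 month libraries lay above both young ones, and replicate 1 was the higher of its age. With the library set as a term Myh7 rose by 1.82 ± 0.25 (SE) on the log2 scale (adjusted p = 0.0248), and it passed in 5 of 22 alternatives. Without that term 0 members were called, 10 had a positive log2 fold change, and 1, Ankrd2, lay lower without overlap. Sarcomere structure genes had 15 of 18 positive, with a median of 0.17. The slow fibre genes had a median of 0.59, and 0.82 with the set as a term, beside 0.11 and -0.11 for the 14 fast fibre genes. In whole muscle, more or fewer cells of a type and more or less RNA per cell cannot be told apart.

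Several immunoglobulin genes were higher in both 12 month libraries. They were among 5 of 12 tested genes of B and plasma cells that lay higher without overlap, where 19.3% of all genes did. Ighm, the heavy chain of IgM, was at 43.7 and 49.5 CPM in the 3 month libraries and 97.6 and 138 CPM in those of 12 months (log2 fold change 1.34 ± 0.36 SE, adjusted p = 0.689). Ighg2c, a heavy chain of switched IgG, was at 0.605 and 0.482 CPM in the 3 month libraries and 6.04 and 12.9 CPM in those of 12 months, a fold of 17.4 (adjusted p = 0.0962). Igkc, the kappa light chain, was at 0.367 and 0.278 CPM in the 3 month libraries and 2.28 and 8.72 CPM in those of 12 months (adjusted p = 0.306). Jchain, which joins secreted IgM and IgA, was at 0.281 and 0.185 CPM in the 3 month libraries and 0.604 and 1.95 CPM in those of 12 months. Replicate 2 of 12 months was the higher in all of them, and all 4 later libraries held Ighg2c at 6.11 to 13.6 CPM. With the library set as a term Ighg2c rose by 3.55 ± 0.23 (SE) on the log2 scale (adjusted p = 2.29e-05), and it passed in 9 of 22 alternatives. Ms4a1, a gene of the B cell surface, was low, at 0.0864 to 0.234 CPM over the 4 libraries. In the fit without the term 0 of these 12 genes were called, 1 lay lower without overlap, and the median log2 fold change was 1.10. Cd209f, a lectin of tissue macrophages, was at 2.51 and 2.91 CPM in the 3 month libraries and 8.57 and 6.65 CPM in those of 12 months, and it rose by 1.83 ± 0.22 (SE) on the log2 scale with the set as a term (adjusted p = 0.00783; 0.596 without it). The 16 macrophage and monocyte genes as a list had a median of -0.21 without the set as a term and of 0.20 with it.

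Imprinted genes, which are expressed from the copy of 1 parent, had a negative log2 fold change in 12 members and a positive one in 7. H19, a maternally expressed noncoding RNA, was at 331 and 376 CPM in the 3 month libraries and 145 and 183 CPM in those of 12 months (log2 fold change -1.11 ± 0.30 SE, adjusted p = 0.676). Rian, a noncoding RNA of the Dlk1-Meg3 cluster, was at 14.1 and 13.3 CPM in the 3 month libraries and 7.32 and 6.47 CPM in those of 12 months (log2 fold change -0.99 ± 0.17 SE, adjusted p = 0.203). Meg3, of the same cluster, was at 12.3 and 15.8 CPM in the 3 month libraries and 6.78 and 9.75 CPM in those of 12 months. Mirg, the third noncoding RNA there, was at 2.38 and 2.39 CPM in the 3 month libraries and 1.27 and 1.01 CPM in those of 12 months. The noncoding RNAs of the cluster named here were thus lower in both 12 month libraries, and all 4 later libraries lay below both young ones. H19 instead stood at 224 to 440 CPM in the later libraries, above both 12 month libraries. Only replicate 2 of 30 months, at 440 CPM, reached the young level. Of 19 tested imprinted genes 0 were called, and the median was -0.40, and -0.33 with the library set as a term. Without overlap 10 lay lower and 5 higher, where 19.2% and 19.3% of all genes did so. Igf2, the fetal growth factor beside H19, was at 5.96 and 7.92 CPM in the 3 month libraries and 11.6 and 6.63 CPM in those of 12 months, which overlap.

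Of 24 tested collagen and matrix genes 7 lay lower at 12 months without overlap, where 19.2% of all genes did, and 0 were called. Col1a1, the main chain of type I collagen, was at 447 and 505 CPM in the 3 month libraries and 261 and 93.7 CPM in those of 12 months (log2 fold change -1.42 ± 0.54 SE, adjusted p = 0.898). Col1a2, its partner chain, was at 446 and 503 CPM in the 3 month libraries and 346 and 170 CPM in those of 12 months. Sparc, a collagen-binding matrix protein, was at 168 and 181 CPM in the 3 month libraries and 134 and 104 CPM in those of 12 months. These 3 genes did not overlap between ages, and replicate 1 of 12 months was the nearer to the young level. Over the list, 0 genes lay higher without overlap, and the median was -0.25. The median was 0.06 in replicate 1 and -0.89 in replicate 2, and 0.10 with the clock score as a term. Tendon and cartilage genes had medians of 0.13 and -0.68 in the same libraries, and macrophage genes 0.14 and -0.58. The part of clock phase, kidney RNA or connective tissue in these gaps was not tested.

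Some globin and heat shock genes were highest of the 4 libraries in replicate 1 of 12 months. Hba-a1, an alpha globin of red blood cells, was at 21.3 and 35.0 CPM at 3 months, 87.8 CPM in replicate 1 of 12 months and 36.9 CPM in replicate 2. The summed red blood cell markers were 88.7 and 146 CPM in the 3 month libraries and 323 and 138 CPM in those of 12 months. Hspa1a, an inducible heat shock protein, was at 5.16 and 3.76 CPM in the 3 month libraries and 16.3 and 6.18 CPM in those of 12 months, and its relative Hspa1b was at 3.87 and 2.80 CPM and 17.7 and 5.32 CPM. With the set as a term Hspa1a was called at a log2 fold change of 1.69 (adjusted p = 0.0312), and the 15 heat shock genes had a median of 0.28. Kcnf1, a potassium channel subunit, was at 17.8 and 16.3 CPM in the 3 month libraries and 6.80 and 18.9 CPM in those of 12 months. Its low level in replicate 1 was shared by the later libraries with kidney markers above 1 CPM (7.93 and 7.05 CPM), while those below had 21.8 and 16.3 CPM. With the set as a term it fell by 1.28 ± 0.15 (SE) on the log2 scale (adjusted p = 0.00552), and without that term its log2 fold change was -0.41 ± 0.64 (SE), 0.15 without replicate 1 of 12 months and -1.34 without replicate 2. What blood or handling contributed to these values was not tested.

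Of 19 tested immediate early genes, which respond within minutes to stimulation or handling, 11 lay above both young libraries in both 12 month libraries, where 19.3% of all genes did. Junb, a subunit of the AP-1 factor, was at 5.08 and 6.60 CPM in the 3 month libraries and 11.2 and 20.5 CPM in those of 12 months (log2 fold change 1.44 ± 0.29 SE, adjusted p = 0.334). Ier2 was at 2.64 and 3.34 CPM in the 3 month libraries and 5.10 and 5.11 CPM in those of 12 months. Nr4a2, an orphan nuclear receptor, was at 1.38 and 1.04 CPM in the 3 month libraries and 3.21 and 5.17 CPM in those of 12 months. None of the list was called (0 of 19), 0 lay lower without overlap, and the median was 0.55. Adding the set as a term left a median of 0.51, and adding the clock score one of 0.49.

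Energy metabolism differed little. Nuclear genes of oxidative phosphorylation had a median log2 fold change of -0.01 over 25 genes, glycolysis and glycogen genes one of -0.05 over 20, and fatty acid oxidation and citric acid cycle genes one of 0 over 20, and 0 of these genes were called. Against the 3 month mean, oxidative phosphorylation had medians of 0.15 in replicate 1 of 12 months and -0.19 in replicate 2. Fatty acid oxidation and citric acid cycle genes had 0.14 and -0.19, and glycolysis and glycogen genes -0.11 and -0.03. Pdk4, which holds back glucose oxidation and follows the clock, was at 421 and 659 CPM in the 3 month libraries and 304 and 209 CPM in those of 12 months (log2 fold change -1.07 ± 0.29 SE, adjusted p = 0.652). Tfrc, the transferrin receptor that takes up iron, was at 205 and 257 CPM in the 3 month libraries and 112 and 157 CPM in those of 12 months (log2 fold change -0.78 ± 0.25 SE, adjusted p = 0.795). Both lay lower in each 12 month library, and all 4 later libraries were also below both young ones. Interferon-response genes had a median of -0.27 over 16 genes, and of 0 with the library set as a term. Without overlap 8 of them lay lower and 0 higher, where 19.2% and 19.3% of all genes did so. Ifi44, one of them, was at 1.69 and 1.06 CPM in the 3 month libraries and 0.370 and 0.351 CPM in those of 12 months.

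Of 19 tested genes that muscle raises after losing its nerve, 15 had a positive log2 fold change and 4 a negative one. Over all 19571 genes tested 9893 were positive. Krt18, a keratin, was at 0.173 and 0.0556 CPM in the 3 month libraries and 0.701 and 0.741 CPM in those of 12 months (log2 fold change 2.68 ± 0.55 SE, adjusted p = 0.376), and it went on to 6.20 and 9.76 CPM at 30 months. Fbxo32 and Trim63, ubiquitin ligases of atrophy, were lower instead, with Trim63 at 266 and 356 CPM in the 3 month libraries and 241 and 203 CPM in those of 12 months (adjusted p = 0.898). Of 19 tested members 0 were called, and the median was 0.23. Without overlap 5 lay higher and 3 lower, where 19.3% and 19.2% of all genes did so. Genes of the neuromuscular junction had a median of 0.11 over 15 genes and cell cycle genes one of -0.24 over 17, which was 0.07 with the library set as a term.

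**Figure D4:**
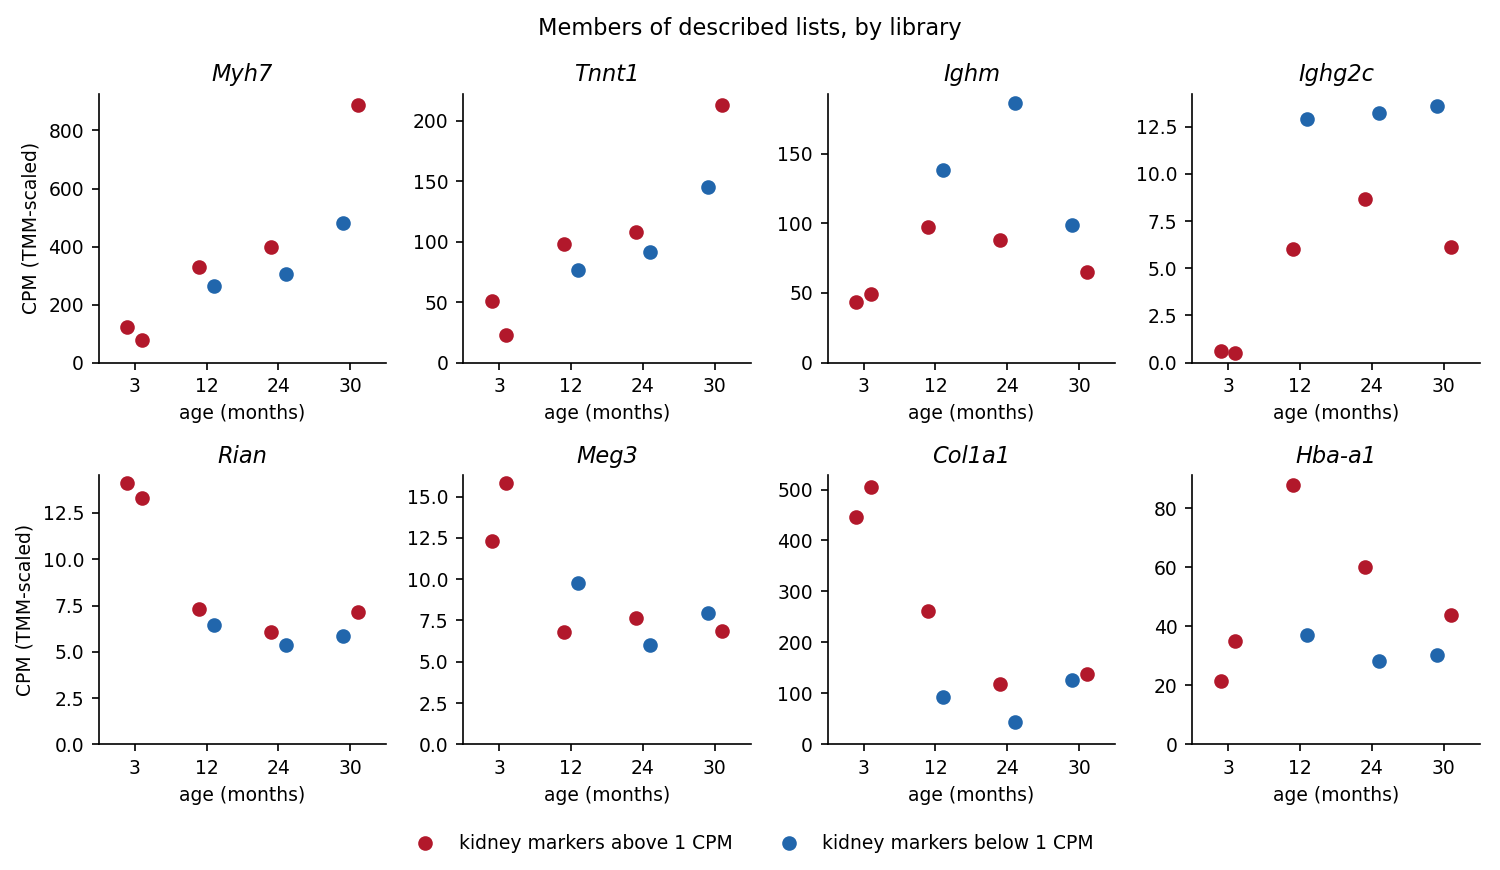
Panels plot the level of 8 genes in CPM (TMM-scaled, linear axis from 0) in every library against age in months, replicate 1 left and replicate 2 right, with red for libraries with kidney markers above 1 CPM and blue for those below. Myh7, Tnnt1, Ighm and Ighg2c sit above the young libraries at 12 months and Rian and Meg3 below, while Col1a1 (261 and 93.7 CPM) and Hba-a1 (87.8 and 36.9 CPM) differ widely between the 12 month replicates.

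**Figure D5:**
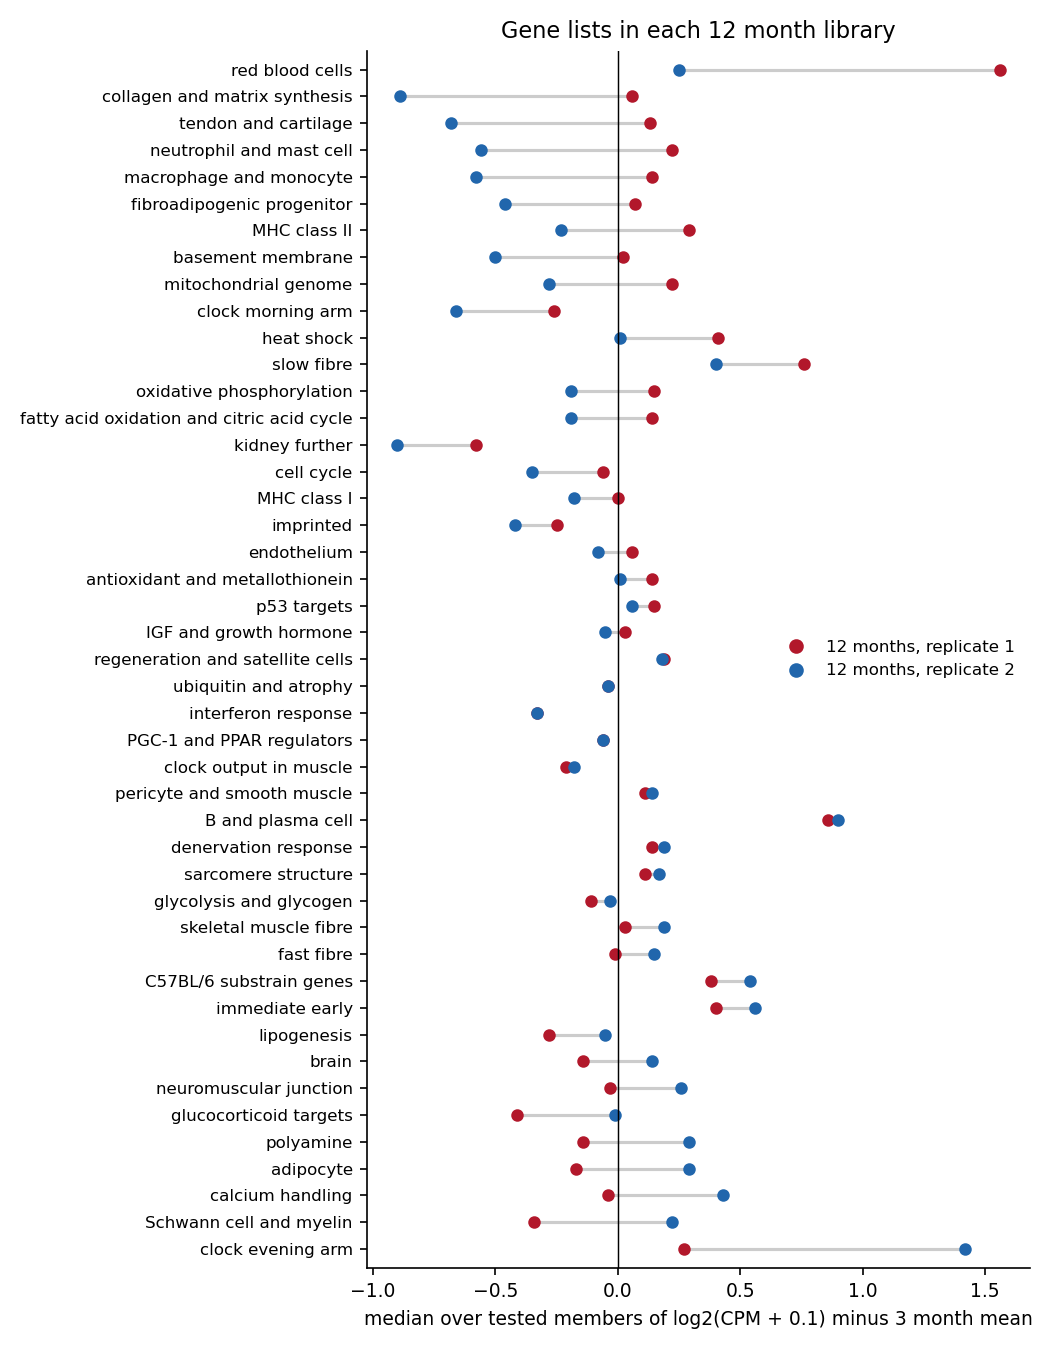
Each row is a gene list with at least 5 tested members, and points give the median of log2(CPM + 0.1) in replicate 1 (red) and replicate 2 (blue) of 12 months minus the 3 month mean, ordered by the gap between replicates. Collagen and matrix synthesis (0.06 and -0.89) and red blood cells (1.56 and 0.25) are higher in replicate 1, and the evening clock arm (0.27 and 1.42) is higher in replicate 2.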

How the data were processed

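The 8 libraries of gastrocnemius muscle were paired-end RNA-seq at 4 ages, with 2 libraries an age. The values deposited by the authors are counts per Ensembl gene, 49315 genes a library, not normalised. Per the submitters' processing notes, Trimmomatic 0.36, STAR 2.5.2b, featureCounts, Subread 1.5.2 and the builds GRCm38 and mm10 were used, and their roles are not listed. Neither the annotation release nor the strand setting nor the treatment of multi-mapping reads was stated (not given in the sources used here). Symbols and coordinates came from GENCODE M21 (GRCm38), which matched 49056 identifiers, 44858 of them with identical start and end.

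In R 4.3.3, edgeR 4.0.16 fitted all 8 libraries with age as a factor (filterByExpr, TMM, robust quasi-likelihood test, 4 residual degrees of freedom), and 12 minus 3 months was tested with Benjamini-Hochberg adjustment over 19571 genes at 0.05. Each SE was obtained by dividing the log2 fold change by the root of its F statistic. Named genes were every called gene, up to 12 each way with the lowest p among genes with a full symbol, an average log2 CPM of at least 2 and no overlap, up to 10 called with the library set as a term, up to 4 members of each of 50 lists, and the 8 genes of the clock score. Tmem181b-ps, Otud1, mt-Co1, mt-Cytb, mt-Nd4, Igf2, Ms4a1, Ankrd2 and the promoter of Per1 lie outside this rule and were named after their values were seen. Members and lists were chosen with earlier results of these data known. The library set, kidney level and clock score were read from the same libraries. Alternatives were RLE, library totals, 2 other filters, DESeq2 1.42.0, limma-voom (limma 3.58.1), other terms and each library left out. The scripts were tested on simulated data. Shared sequence was counted as 25-base words of annotated exons.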

Additional observations from a re-analysis of the deposited data

How the results depend on the processing

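The count of genes called between 12 and 3 months, 8, was 8 with RLE size factors, 7 with library totals and 7 with limma-voom, moved to 134 with no low count filter and to 66 with DESeq2, and to 5 with the stricter filter. It was 29 with the library set, 16 with the kidney level and 19 with the clock score as a term, 7 with kidney level and clock score together, 12 with only the 4 libraries compared, 6 against a minimum change of 1.5 times, 8 without kidney and clock genes and 1 without mitochondrial and repeat genes. Leaving out each library in turn gave 4 to 14. The replicate block gave 5, and replicate numbers did not pair the libraries: same-numbered libraries of 3 and 12 months deviated together at a correlation of 0.199 across genes, and the other pairs of ages ran from -0.601 to 0.376. Of 740 fold changes of 34 named genes under alternatives, 632 kept direction and side of the threshold, 33 lost and 73 gained the call, and 2 reversed: Kcnf1 at 0.15 without replicate 1 of 12 months (from -1.34 without replicate 2) and Per2 at -0.57 with the kidney level as a term. The cause was not tested. Of 782 list medians, 119 changed sign. The alternatives for the 2-fold counts were chosen after seeing the data: library totals alone gave 11 higher and 10 lower genes, and a limit of 1.5-fold gave 45 and 24.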
